A study of Mus musculus with 3 samples.

Results

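Of the 14082 distinct Isl1 peaks in the deposited list, 4387 (31.2%, 95% Wilson interval 30.4 to 31.9) had their midpoint at or downstream of the transcription start site (TSS) to which they were assigned. They were chosen by 1 value of the list, a signed distance to the closest TSS of 0 to 1000 bp, after identical lines had been counted once. They are called downstream promoter peaks here, and were compared with the 9695 other peaks and, among these, with the 1029 upstream promoter peaks whose midpoints lay 1 to 1000 bp before a TSS. The study mapped where Isl1 sits on chromatin in cardiac progenitor cells (CPCs), obtained at day 5 of directed differentiation from 1 mouse embryonic stem cell (ESC) line, E14 Tg(Nkx2-5-EmGFP), which carries a fluorescent reporter for Nkx2-5. There were 2 samples immunoprecipitated with a monoclonal Isl1 antibody and 1 input sample, a part of the precleared lysate that did not go through the pulldown. All 3 samples came from the same line and stage, so no cells without Isl1 and no other stage enter these comparisons. The identity of the cells could not be checked against marker genes, because no expression is measured in this list.

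The list combines both ChIP samples and gives no read number, score or enrichment for a peak. Depth is therefore unknown and the error between replicates cannot be stated. Intervals and tests cover sampling within this 1 list only. A peak shows that reads were enriched over input at the caller's cutoff, with no measure of how strongly.

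Isl1 is a LIM-homeodomain transcription factor that marks progenitors of the second heart field, the cell population that builds the outflow tract, the right ventricle and parts of the atria. Homeodomains bind short AT-rich DNA elements, and LIM-homeodomain factors recruit the cofactor Ldb1 through their LIM domains. Most promoters of broadly used and developmental genes in mammals lie in CpG islands, which are stretches of high GC content where the dinucleotide CG has not been lost. GC content and the ratio of observed to expected CG dinucleotides (CpG ratio) therefore describe which kind of promoter a peak covers.

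Windows of 120 bp at peak midpoints show what these regions look like. They are printed 5′ to 3′ on the strand of the gene, from the mm9 sequence, with each CG dinucleotide in capitals. The windows are Tbx1, a T-box factor of the outflow tract (chr16:18586812-18586931, minus strand, coding exon), Nkx2-5, an early cardiac homeodomain factor (chr17:26978105-26978224, minus, coding exon), and Srf, an activator of muscle genes (chr17:46692589-46692708, minus, coding exon). Jag2 is a Notch ligand (chr12:114167363-114167482, minus, coding exon), and Rbpj is the DNA-binding factor of Notch signaling (chr5:53982053-53982172, plus, intron). Dpf3 is a subunit of the BAF chromatin remodeling complex (chr12:84827763-84827882, minus, intergenic), and its midpoint was at -33594 bp from the closest protein-coding GENCODE TSS. Of the 11 genes discussed in the study that have a downstream promoter peak, only Dpf3 had a central window free of annotated UTR, and the other 5 windows were chosen after their values were seen, to span the range of composition.
Tbx1: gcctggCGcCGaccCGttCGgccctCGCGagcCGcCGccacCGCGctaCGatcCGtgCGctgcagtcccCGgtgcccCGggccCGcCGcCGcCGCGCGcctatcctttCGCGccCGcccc
Nkx2-5: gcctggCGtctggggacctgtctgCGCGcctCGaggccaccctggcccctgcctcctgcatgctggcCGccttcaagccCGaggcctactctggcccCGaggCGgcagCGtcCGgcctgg
Srf: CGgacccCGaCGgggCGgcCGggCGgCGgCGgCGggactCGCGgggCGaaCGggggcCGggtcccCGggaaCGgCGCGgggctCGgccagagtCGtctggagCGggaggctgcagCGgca
Jag2: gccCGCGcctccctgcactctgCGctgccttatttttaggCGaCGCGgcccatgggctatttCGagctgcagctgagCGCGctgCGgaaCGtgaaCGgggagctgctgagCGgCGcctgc
Rbpj: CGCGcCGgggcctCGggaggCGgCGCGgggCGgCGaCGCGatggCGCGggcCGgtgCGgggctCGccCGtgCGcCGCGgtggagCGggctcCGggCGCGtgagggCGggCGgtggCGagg
Dpf3: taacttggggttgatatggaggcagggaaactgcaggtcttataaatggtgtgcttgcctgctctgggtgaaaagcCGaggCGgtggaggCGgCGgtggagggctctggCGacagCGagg

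The window of Rbpj held 27 CG dinucleotides and had a GC content of 87.5%, and that of Tbx1 held 24 at 81.7% and that of Srf 22 at 83.3%. The window of Jag2 held 14 CG dinucleotides at 67.5% GC, and that of Nkx2-5 held 10 at 75%. The window of Dpf3 was the poorest of the 6, with 6 CG dinucleotides and a GC content of 59.2%.

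The letters CTAATTG or CTAATGG, searched on both strands as a LIM-homeodomain type string, were found in the central 200 bp of only 12 downstream promoter peaks (0.274%, 0.157 to 0.478). These 12 were assigned to 4933416C03Rik, Dyrk1b, Gsc2, Hr, Icosl, Inpp5a, Ldb1, March4, Mllt3, Rap2b, Rpl5 and Sept11, which are named because they are the matches and not by any other value. The 7 matches whose surroundings hold no annotated UTR are shown with 20 bp on each side, on the strand that reads CTAAT, with the match in capitals. Among them are Ldb1, the cofactor of LIM-homeodomain factors (chr19:46119740-46119786), Gsc2, a homeobox gene (chr16:17914742-17914788), and Dyrk1b, a protein kinase (chr7:28964920-28964966). The others are Icosl, a costimulatory ligand of T cells (chr10:77532055-77532101), Mllt3, a subunit of the super elongation complex (chr4:87678866-87678912), Rpl5, a protein of the large ribosomal subunit (chr5:108329789-108329835), and Sept11, a septin (chr5:93522376-93522422). The match in Gsc2 lies on the minus strand of the assembly, as does that in Icosl, and the other 5 matches lie on the plus strand.
Ldb1: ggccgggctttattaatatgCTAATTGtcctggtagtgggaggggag
Gsc2: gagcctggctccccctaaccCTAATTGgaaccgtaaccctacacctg
Dyrk1b: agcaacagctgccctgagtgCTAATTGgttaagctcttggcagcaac
Icosl: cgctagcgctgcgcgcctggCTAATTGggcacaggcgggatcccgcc
Mllt3: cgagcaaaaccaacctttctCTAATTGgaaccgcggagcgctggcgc
Rpl5: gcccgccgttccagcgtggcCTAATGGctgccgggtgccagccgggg
Sept11: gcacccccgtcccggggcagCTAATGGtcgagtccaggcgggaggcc

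The match in Ldb1 lay at -61 bp from the TSS, in a peak of 1113 bp whose midpoint was 28 bp downstream of it. The match in Gsc2 lay 388 bp downstream of the TSS and that in Mllt3 lay 423 bp downstream.

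The downstream promoter peaks were concentrated just past the TSS. The median distance of their midpoints was 190 bp (interquartile range 109 to 305), 52.7% lay within 199 bp and 91.7% within 500 bp. The fullest interval of 100 bp was 100 to 199 bp, with 1336 peaks (30.5%), against 974 at 0 to 99 bp. These distances are what the selection used, so they are described without a test. At the edges of the rule, 8 peaks lay at 0, among them the peaks of Arsi and of the BAF subunit gene Smarcd3, and the peak farthest inside lay at 999 (Trim71). The nearest peaks outside lay at -1 (Clcc1) and at 1001 (Ccsap).

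**Figure D1:**
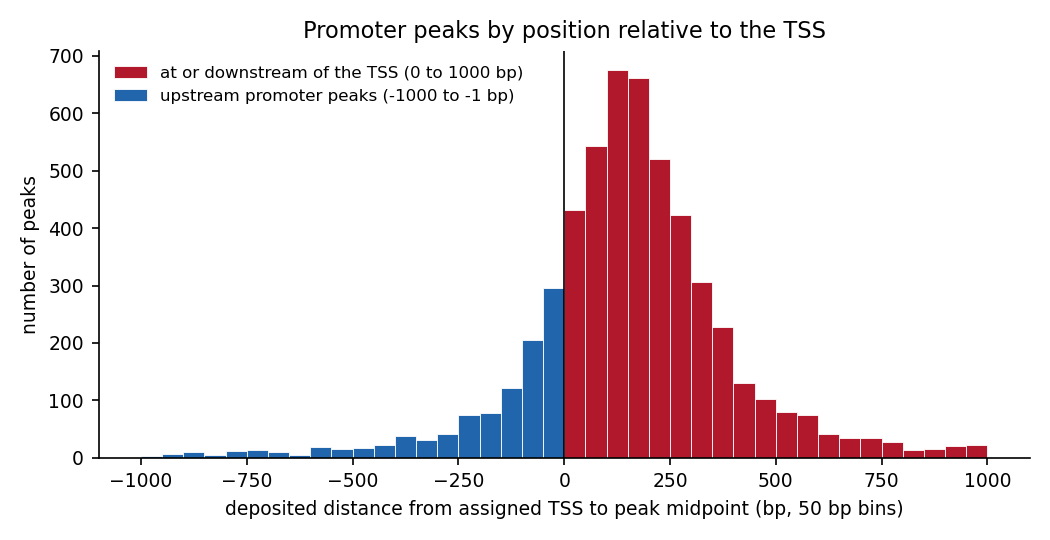
Number of peaks in 50 bp bins of the deposited distance from the assigned TSS to the peak midpoint, for downstream promoter peaks (red) and upstream promoter peaks (blue). The 4387 downstream peaks have their median at 190 bp, and the 1029 upstream peaks are most frequent next to the TSS.

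The assigned start sites were compared with a second set of gene models. For 4300 downstream promoter peaks the strand of the gene was known and the TSS could be worked out from the midpoint and the distance. It fell within 50 bp of an annotated TSS for 3852 of these (89.6%). Distances were measured again from the closest protein-coding TSS of the GENCODE annotation. By these, 3850 of the 4387 peaks (87.8%) kept a midpoint 0 to 1000 bp downstream. A further 411 lay up to 1000 bp upstream, and 126 lay more than 1 kb away on either side. Of the peaks described below, those of Lmo1 (-4772 bp), Sox1 (9763 bp), Mn1 (1582 bp) and Dll1 (1015 bp) were more than 1 kb from the closest GENCODE TSS, as were those of Cacna1c and Dpf3.

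Although the midpoints lie downstream, 4082 of 4300 peaks (94.9%) covered the TSS itself. With positions counted from the TSS, the median edges were at -320 bp (interquartile range -438 to -205) and 722.5 bp. Those of upstream promoter peaks were at -718 bp and 426 bp, and 91.1% of those peaks covered the TSS. Both classes thus share the DNA around the TSS and differ in which side they extend to.

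**Figure D2:**
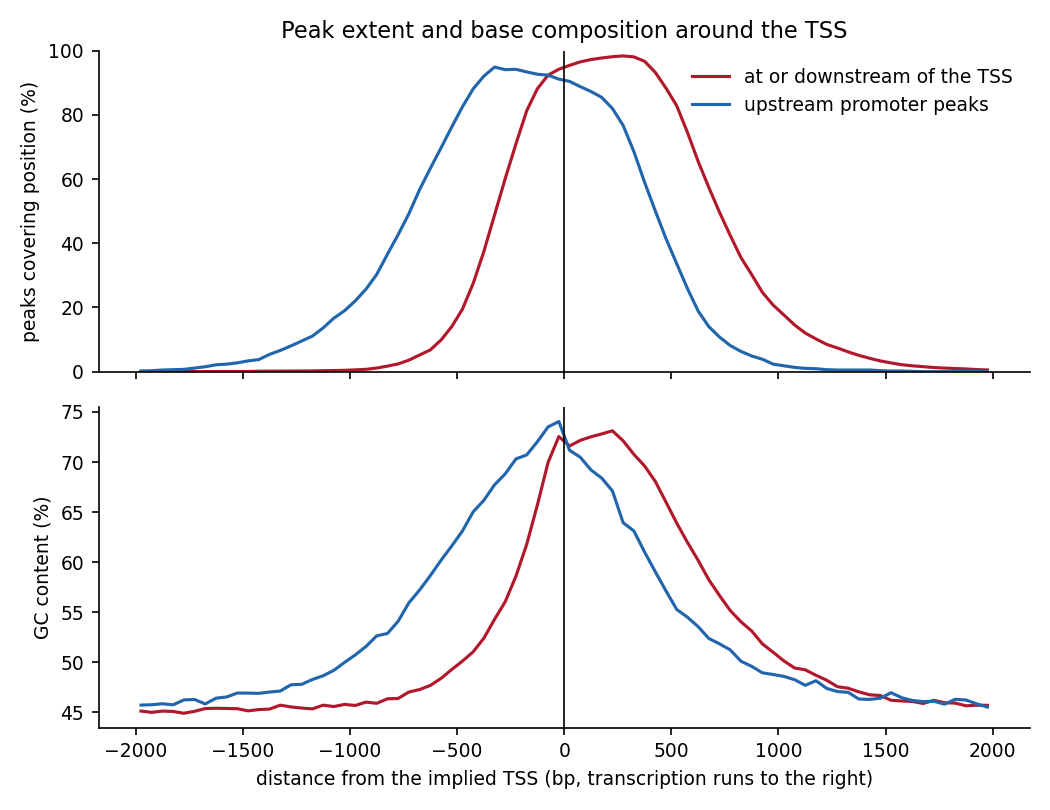
Share of peaks that cover each position (upper panel, %) and mean GC content of the DNA at that position (lower panel, %), in 50 bp bins from 2000 bp upstream to 2000 bp downstream of the TSS, for 4300 downstream (red) and 984 upstream (blue) promoter peaks. Coverage by downstream promoter peaks is 98.4% at 250 to 300 bp and 19.5% at -500 to -450 bp, and GC content is high over the DNA each class covers.

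GC content followed the same asymmetry. At the promoters of downstream peaks it was 72.5% in the 50 bp before the TSS, 73.1% at 200 to 250 bp, 63.9% at 500 to 550 bp and 50.1% at -500 to -450 bp. At the promoters of upstream peaks it was 74.0% in the 50 bp before the TSS, 67.1% at 200 to 250 bp and 63.1% at -500 to -450 bp.

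In terms of gene structure, the midpoint fell in a UTR for 1898 downstream promoter peaks (43.3%), in a coding exon for 1252 (28.5%), in an intron for 1039 (23.7%), in a non-coding exon for 111 (2.53%) and outside genes for 87 (1.98%). The share in UTRs was 75.8% among peaks at 0 to 99 bp and 15.6% among those at 600 to 1000 bp, where introns held 44.1%. The annotated start codon lay inside the peak for 2709 of 3959 genes (68.4%), against 52.2% for upstream promoter peaks. The first exon of the assigned transcripts had a median length of 273.5 bp (n = 3672), and the midpoint lay past its end for 28.9%.

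Downstream promoter peaks were wider than most other peaks. Their median width was 1040 bp (95% interval 1026 to 1052, interquartile range 833 to 1291), against 895 bp (885 to 904) for all other peaks and 1112 bp (1079 to 1140) for upstream promoter peaks. They exceeded the median width of the list, 947 bp, in 61.1% of cases against 44.9% of the other peaks (odds ratio 1.93, 1.79 to 2.07, two-sided Fisher exact test, adjusted p = 1.11e-70). The upstream promoter peaks exceeded it more often, in 64.7% (odds ratio 0.855, 0.742 to 0.985, adjusted exact p = 0.0328). The p-values of the Fisher exact tests on peak classes are adjusted over 11 tests.

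The difference from the other peaks was present over most of the width range. Widths of 700 bp or less were found for 10.6% of downstream promoter peaks and 29.1% of the other peaks, and widths of 1000 bp or less for 45.1% and 59.7%. Only 39 downstream promoter peaks (0.889%) were narrower than 500 bp, against 816 of the other peaks (8.42%). At the wide end, 135 (3.08%) and 300 (3.09%) reached 2000 bp, and with 2000 bp as the limit in place of the median the odds ratio was 0.994 (adjusted exact p = 1). Most other peaks lay in repeated sequence, and among single-copy peaks the shares above 947 bp were 61.3% and 41.6% (odds ratio 2.23, adjusted exact p = 1.24e-64).

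**Figure D3:**
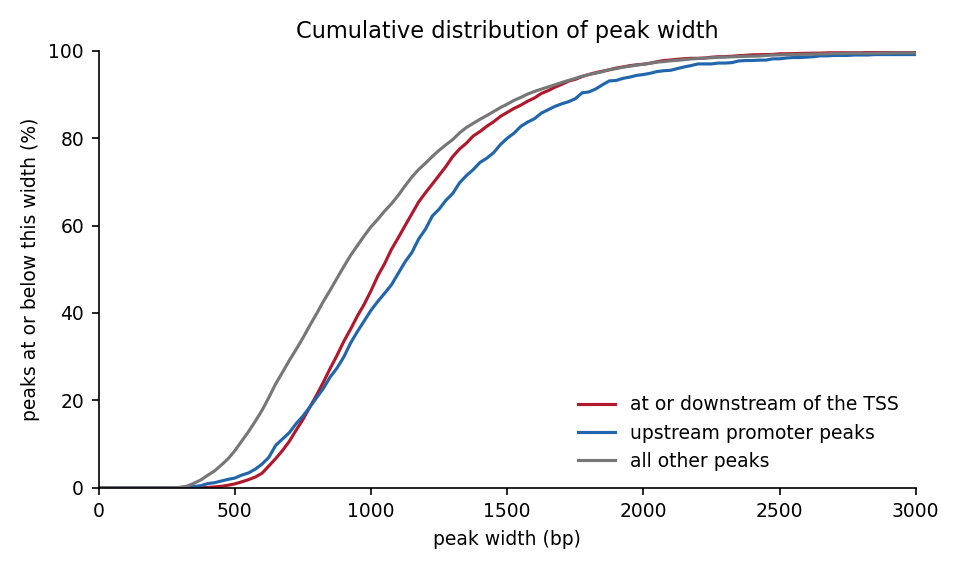
Cumulative share of peaks (%) at or below each width (bp, shown to 3000) for downstream promoter peaks (red), upstream promoter peaks (blue) and all other peaks (grey, which include the upstream ones). The red curve starts to rise later than the grey one, with 0.889% against 8.42% of peaks under 500 bp, and these 2 curves meet near 2000 bp.

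Width also varied with position. The median was 960.5 bp for peaks at 0 to 99 bp, 967.5 bp at 100 to 199 bp, 1054 bp at 200 to 299 bp and 1333 bp at 400 to 599 bp, and it was 1295 bp at 600 to 1000 bp. The widest downstream promoter peak, of 5423 bp, lay on chromosome 5 from 111845333 to 111850756 at Mn1, a transcriptional coregulator gene. The next were 3452 bp at Insm1, a zinc-finger factor of endocrine and neuronal cells, 3383 bp at Irs2, an adaptor of insulin signaling, 3370 bp at Zfp36l2, an mRNA-binding protein, and 3236 bp at Ctbp2, a transcriptional corepressor. The 10 widest further held Arid1b (3156 bp) and Arid1a (3070 bp), which encode alternative ARID subunits of the BAF complex, and Pou3f1, Zswim6 and Adcy5 (3081, 3074 and 3057 bp).

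Nearly all downstream promoter peaks were CpG-rich and unique in the genome. The central 500 bp had a GC content of at least 55% and a CpG ratio of at least 0.65 in 94.5% of them, against 24.9% of the other peaks (odds ratio 52.2, 45.5 to 59.9) and 87.7% of the upstream promoter peaks (odds ratio 2.43, 1.94 to 3.05, Fisher exact test, adjusted p = 3.54e-13). A central 200 bp whose 31-mers occur once in the genome, by their median count, was found in 97.7% of them, 33.5% of the other peaks (odds ratio 83.3, 68.1 to 102) and 96.1% of the upstream promoter peaks (odds ratio 1.70, 1.17 to 2.47, adjusted exact p = 0.00804). The p-values against all other peaks were too small to be represented for both measures. Apart from the 1029 upstream promoter peaks, the other peaks lie more than 1 kb from their assigned TSS by the rule. The midpoints of 58.7% of the other peaks fell outside genes. Contrasts with all other peaks therefore cannot be told apart from nearness to a TSS. With 51-mers the difference in copy number from upstream promoter peaks no longer passed the threshold (odds ratio 1.28, adjusted exact p = 0.334). Among single-copy peaks alone, 94.9% of the downstream promoter peaks and 55.6% of the other peaks were CpG-rich (odds ratio 14.9).

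Base composition varied little among the downstream promoter peaks. The central 200 bp had a GC content of 73.7% ± 5.45 (SD, n = 4387), against 73.6% ± 7.46 (SD, n = 1029) in upstream promoter peaks and 63.3% ± 8.81 (SD, n = 9695) in the other peaks. The median CpG ratio over 500 bp was 0.900, 0.884 and 0.554 in the same order. On the strand of the gene, G exceeded C in 63.7% of the central windows, against 56.5% in upstream promoter peaks and 49.1% in the other peaks.

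Chromosome X held 18 downstream promoter peaks (0.410%), against 5.13% of the other peaks (odds ratio 0.0762, 0.0476 to 0.122, Fisher exact test, adjusted p = 2.12e-58). When only single-copy peaks were compared the shares were 0.350% and 0.677%, and the difference no longer passed the threshold (odds ratio 0.516, adjusted exact p = 0.0531). Upstream promoter peaks were on chromosome X in 0.583% (odds ratio 0.702, 0.278 to 1.77, adjusted exact p = 0.436).

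Assignment to a non-coding RefSeq transcript was found for 2.30% of downstream promoter peaks, 16.5% of the other peaks (odds ratio 0.119, 0.0972 to 0.146, Fisher exact test, adjusted p = 3.11e-160) and 7.09% of the upstream promoter peaks (odds ratio 0.309, 0.227 to 0.420, adjusted exact p = 1.75e-12). A divergent promoter, with a TSS of another gene on the opposite strand within 1000 bp upstream, was nearest to 5.17% of downstream and 9.33% of upstream promoter peaks (odds ratio 0.530, 0.413 to 0.680, adjusted exact p = 2.26e-06). Since the list assigns each peak to 1 gene, such a peak counts for at most 1 gene of the pair. Whether the other gene had a peak of its own was not counted. Both differences from upstream promoter peaks depended on the gene models: with distances to the GENCODE TSSs the odds ratios were 0.926 (adjusted exact p = 0.677) and 0.789 (adjusted exact p = 0.0922).

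Of 9 short strings that transcription factors are known to bind, the CCAAT box and the GC box differed between the promoter classes, both being less frequent in downstream promoter peaks. Each string was counted in the central 200 bp on either strand. It was compared between 4387 downstream and 1029 upstream promoter peaks, with p-values adjusted over the strings. By the rule, windows of downstream promoter peaks are centred at or past the TSS, and those of upstream promoter peaks before it. Differences in any of the 9 strings between these classes therefore cannot be told apart from the position of the window relative to the TSS. The CCAAT box (CCAAT), the binding element of NF-Y, was in 6.34% and 15.3% (odds ratio 0.376, 0.305 to 0.463, Fisher exact test, adjusted p = 1.41e-17). The GC box (GGGCGG), bound by Sp and Klf factors, was in 63.9% and 73.1% (odds ratio 0.652, 0.561 to 0.759, adjusted exact p = 8.24e-08), a difference that was not found with 400 bp windows (odds ratio 0.938, adjusted exact p = 0.629). In windows of equal length centred 190 bp downstream of all 45982 annotated protein-coding TSSs, 17.0% held the CCAAT box and 27.2% the GC box, and the shares over all 14082 peaks were 12.9% and 42.0%. The windows at annotated TSSs were not matched to the peaks for GC content. Over 500 bp at this position the median was 59.6% for protein-coding genes, against 72.6% in the central 500 bp of downstream promoter peaks. Differences from these windows in any of the 9 strings were not tested.

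The LIM-homeodomain type string was in 0.274% of downstream and 0.777% of upstream promoter peaks (odds ratio 0.350, 0.143 to 0.859, Fisher exact test, adjusted p = 0.110), in 0.474% of the other peaks, in 0.412% of all peaks and in 1.43% of the windows at annotated TSSs. With 400 bp windows this difference passed the threshold (odds ratio 0.286, adjusted exact p = 0.00109). The GATA type string (AGATAA) was in 0.775% of downstream and 0.875% of upstream promoter peaks (adjusted exact p = 0.698), with 1.70% over all peaks and 5.45% at annotated TSSs. The ETS type string (CCGGAAG) was in 5.11% and 6.03% (adjusted exact p = 0.291), with 9.21% over all peaks and 3.71% at annotated TSSs. The YY1 type string (AAGATGG) was in 3.31% and 2.14% (adjusted exact p = 0.110), with 17.1% over all peaks and 3.74% at annotated TSSs. The CRE (TGACGTCA), NRF1 type (GCGCATGCG) and TCTCGCGAG strings were each in under 1% of both classes and did not pass the threshold (lowest adjusted exact p = 0.110). With GENCODE distances the CRE and NRF1 type strings did pass (odds ratios 0.346 and 0.365, adjusted exact p = 0.0277 for both). The 3 strings had shares at annotated TSSs of 0.235%, 0.246% and 0.120% and over all peaks of 0.241%, 0.327% and 0.107%. CTAATTG followed by G also holds the CCAAT box on the opposite strand, as it did at 5 of the 12 matches. A match is only the presence of these letters in the window, and the windows at annotated TSSs were not matched for GC content.

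The 4387 peaks were assigned to 4329 gene symbols, of which 3245 (75%) had no other peak in the list. Among 21900 protein-coding genes, 4216 (19.3%) had a downstream promoter peak and 935 (4.27%) had an upstream one. These shares are the background for the gene groups. The composition of the promoter separated genes with and without a peak over a wide range. Composition was read in 500 bp centred 190 bp downstream of the most 5′ annotated TSS, the median position of these peaks, for 20308 genes. Of the 9417 genes that were CpG-rich there by the limits given above, 3611 (38.3%) had a downstream promoter peak, against 557 of 10891 other genes (5.11%). Within the CpG-rich promoters the median GC content was 72.2% with such a peak (interquartile range 69.0 to 75.4) and 65.2% without one (61.4 to 69.2). The share of genes with a peak was 2.08% below 45% GC and 9.71% at 60 to 65%, then 32.5% at 65 to 70%, 61.6% at 70 to 75% and 75.7% at 75 to 80%, and it was 71.4% of the 206 genes at 80% or more.

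**Figure D4:**
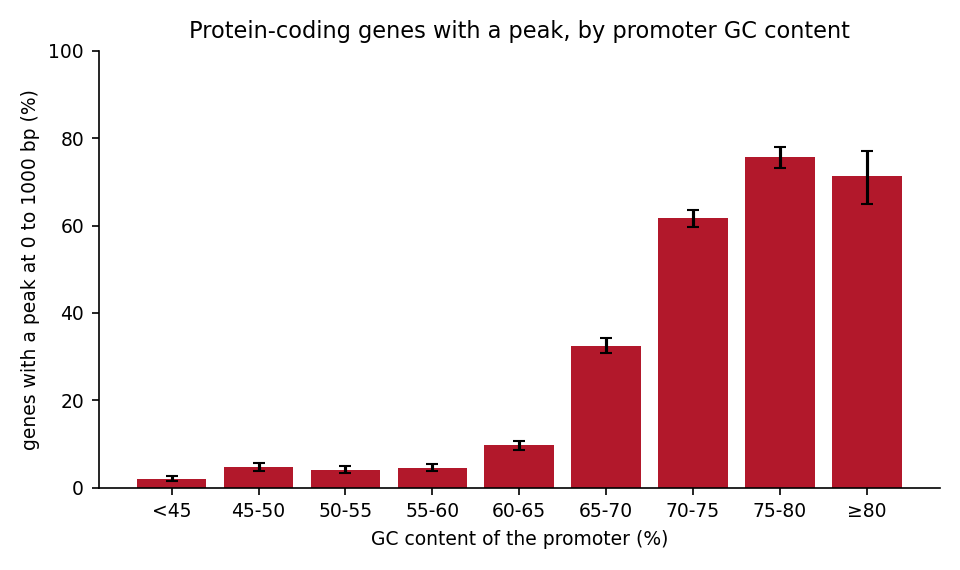
Share of protein-coding genes (%) with a downstream promoter peak, by the GC content (%) of the 500 bp centred 190 bp downstream of the TSS, with error bars for 95% Wilson intervals. The share stays under 10% up to a GC content of 65% and reaches 75.7% at 75 to 80%.

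On chromosome X, 17 of 966 protein-coding genes (1.76%) had a downstream promoter peak, against 4199 of 20665 autosomal genes (20.3%). Among CpG-rich promoters the counts were 15 of 233 on chromosome X (6.44%, 3.94 to 10.3) and 3596 of 9184 on autosomes (39.2%, 38.2 to 40.2), with a median GC content of 65.0% and 68.2%. The autosomes ranged from 13.3% of genes on chromosome 7 to 26.5% on chromosome 12, and none of the 256 genes on chromosome Y had such a peak.

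Of 36 gene lists, 25 held a larger share of genes with a downstream promoter peak than the 19.3% of all protein-coding genes. The intervals of some lists above this share include it, among them Sox genes (15.4 to 54.0%) and potassium channels (16.0 to 32.9%). So do those of some lists below it, among them proteasome subunits (3.96 to 23.1%) and collagens (2.22 to 25.0%). The lists are described by these counts and were not tested.

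**Figure D5:**
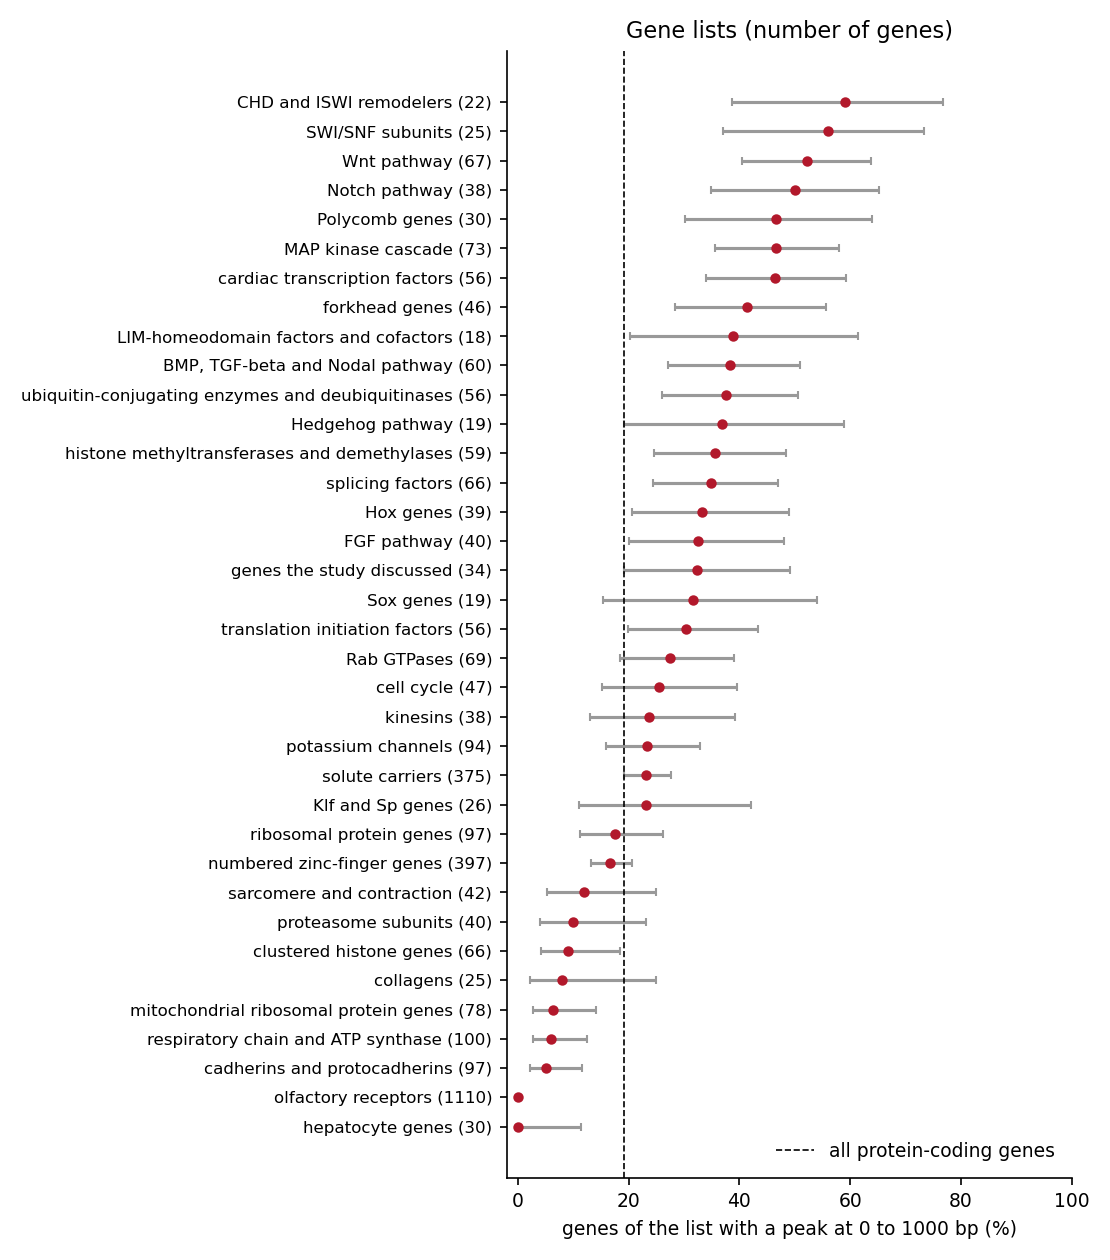
Share of the genes of each list (%) with a downstream promoter peak, with 95% Wilson intervals as bars and the number of genes in brackets. The dashed line marks the 19.3% of all protein-coding genes. CHD and ISWI remodelers, SWI/SNF subunits and the Wnt and Notch pathways lie highest, and mitochondrial ribosomal protein genes, respiratory chain genes, cadherins, olfactory receptors and hepatocyte genes lowest.

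A larger share of the transcription factors of heart development had a downstream promoter peak than of all protein-coding genes. Of 56 such factors, 26 (46.4%) had one and 7 (12.5%) had an upstream one. T-box factors with a peak were Eomes, which acts in cardiac mesoderm, Tbx1, Tbx2 and Tbx18. No peak of any class was assigned to Tbx5 and Tbx20, which act in chamber formation. The study lists both among Isl1 targets, from binding in CPCs or in embryos. Here and below, a gene without a peak is one to which no peak of this list was assigned by closest TSS. Tbx3 had an upstream promoter peak. Of the homeodomain factors, Nkx2-5 (911 bp, midpoint 346 bp downstream, 71.5% GC in the central 200 bp), Msx1 (1249 bp, 409 bp) and Six4 had downstream promoter peaks, as did Irx1, Irx2, Irx4 and Irx5. Isl1 itself had none, and its 3 peaks lay farther than 1 kb from its TSS.

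Among the GATA factors, Gata5 had a coding exon peak (chromosome 2, 180068325 to 180069769), Gata4 had 2 peaks outside the promoter, and Gata6 had none. Hand2, a basic helix-loop-helix factor of the right ventricle, had a peak with its midpoint 936 bp downstream in a coding exon (chromosome 8, 59800087 to 59801346), and Hand1 had no peak. Mesp1 and Mesp2, which mark the earliest cardiac mesoderm, both had downstream promoter peaks (960 and 1005 bp). Tead1, Tead2 and Tead4, effectors of Hippo signaling, had peaks of 1354, 640 and 785 bp. The widest of the list were those of Foxc2 (2240 bp, 913 bp downstream) and of Pbx3, a TALE homeodomain factor (2146 bp, 31 bp downstream). For the whole list the median width was 1333.5 bp and the median distance 341.5 bp, against 1038 bp and 189 bp over all protein-coding genes. Neither was tested.

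Of 42 genes of the contractile apparatus, 4 (9.52%) had an upstream promoter peak, against 4.27% of all protein-coding genes. These 4 genes were Cacna1c, Myl9, Nebl and Tpm2, and a share resting on so few was not tested. Cacna1c had a downstream promoter peak too. The interval of the share with a downstream one, 5.19 to 25.0%, includes the 19.3% of all protein-coding genes. Such a peak was found at 5 of the 42 genes (11.9%). Among them were Tpm1, a tropomyosin (chromosome 9, 66891206 to 66892028, in a UTR), Ryr2, the calcium release channel (chromosome 13, 12197923 to 12199424, in a coding exon), Atp2a2, the calcium pump of the sarcoplasmic reticulum (1979 bp, 221 bp downstream), and Cacna1c, the L-type calcium channel (899 bp, 854 bp). The Cacna1c peak lay at -67611 bp from the closest GENCODE TSS, and with GENCODE distances 7.14% of the list had a downstream promoter peak, against 18.7% of all protein-coding genes. No peak of any class was assigned to the myosin genes Myh6, Myh7, Myl2, Myl3, Myl4 and Myl7, to the troponin genes Tnnc1, Tnni1, Tnni3, Tnnt1 and Tnnt2, or to Ttn, Actc1 and Actn2. The study lists Ttn among the Isl1 targets bound in CPCs or in embryos. CpG-rich promoters made up 23.8% of this list and 64.3% of the cardiac transcription factors. When only peaks up to 500 bp from the TSS were counted, 4.76% of the list had one, against 17.8% of all protein-coding genes.

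Subunits of SWI/SNF (BAF and PBAF) complexes, which move nucleosomes with energy from ATP, reached 14 of 25 (56.0%), and 10 of the 18 with a promoter GC content of 65% or more (55.6%, against 51.4% of all genes in that range). The ARID subunit genes Arid1a and Arid1b had wide peaks (3070 bp at 243 bp downstream and 3156 bp at 326 bp), and Arid2 had an upstream promoter peak. All 3 genes of the BAF60 subunits had one, Smarcd1 (876 bp, 85 bp), Smarcd2 (1270 bp, 138 bp) and Smarcd3 (1363 bp, 0 bp), the last on chromosome 5 from 24107139 to 24108502. Pbrm1, specific to PBAF, had a peak of 1042 bp in an intron with 85.5% GC in its central 200 bp. The BAF45 genes Dpf1 and Dpf3 had peaks, the latter at a promoter position only by the deposited distance, and Dpf2 had none. No peak of any class was assigned to either ATPase gene, Smarca4 or Smarca2, and the same was true of the core subunit genes Smarcb1 and Smarcc1. The study shows Smarca4 as a gene with reduced chromatin accessibility at Isl1 binding sites in embryos without Isl1. Other chromatin groups were also above the background, with 13 of 22 CHD and ISWI remodelers (59.1%, among them Baz1a, Baz1b and Chd1), 14 of 30 Polycomb genes (46.7%, among them Bmi1, Cbx2 and Ezh1) and 21 of 59 histone methyltransferases and demethylases (35.6%, among them Dot1l, Kdm1a and Ehmt1).

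LIM-homeodomain genes and their cofactors had a downstream promoter peak in 7 of 18 cases (38.9%). The cofactor gene Ldb1 had a peak on chromosome 19 from 46119117 to 46120230. The LIM-homeodomain genes with a peak were Lhx1, Lhx2 and Lhx6, and the LIM-only genes were Lmo1, Lmo2 and Lmo4. Lhx2 had 2 downstream promoter peaks, at 155 and 87 bp from start sites that lay 12027 bp apart, and Lmo4 had 2 at start sites 2859 bp apart. Lhx4, Lmx1a and Lmx1b had upstream promoter peaks, and Isl2 had 3 peaks elsewhere.

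In the Notch pathway, in which membrane ligands activate receptors on the neighbouring cell, 19 of 38 genes (50.0%) had a downstream promoter peak. Ligands with a peak were Dll1 (935 bp, 862 bp downstream) and Jag2 (2270 bp, 284 bp), and Jag1 had an upstream promoter peak. The receptors Notch1 (1000 bp, 139 bp), Notch2 (1196 bp, 157 bp) and Notch3 (829 bp, 914 bp) had one, and Notch4 had no peak. Rbpj (1175 bp, 387 bp), with 89.0% GC in its central 200 bp, and its coactivator Maml1 (1038 bp, 251 bp) had one too. Of the Hes and Hey genes, Hes5 and Hes6 had downstream promoter peaks, Hey1 had an upstream one, and Hes1, Hey2 and Heyl had only peaks farther away. Dll1, Notch3 and Rbpj had an upstream promoter peak in addition.

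In the Hedgehog pathway 7 of 19 genes (36.8%) had a downstream promoter peak. They comprised the ligand gene Ihh (1761 bp), Hhat, whose product attaches the fatty acid to Hedgehog ligands (793 bp), the receptor Ptch1 (1187 bp), its coreceptor Gas1 (2872 bp), the signal transducer Smo (1464 bp), the inhibitor Sufu (631 bp) and the effector Gli2 (843 bp). Gli1 had no peak, Gli3 had an upstream promoter peak, and the 3 peaks of Shh lay outside the promoter.

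The Wnt pathway reached 35 of 67 genes (52.2%), among them Axin1 and Axin2, scaffolds of the destruction complex, Ctnnb1, which encodes beta-catenin (1615 bp in an intron, 85.5% GC), Dvl1 and the receptor gene Fzd1. The MAP kinase cascade reached 34 of 73 (46.6%), BMP, TGF-beta and Nodal signaling 23 of 60 (38.3%, among them Bmp2, Bmp6 and the receptor gene Acvr2b), and FGF signaling 13 of 40 (32.5%, among them Fgf2, Fgf4 and Fgf8). Forkhead genes reached 19 of 46 (41.3%), Hox genes 13 of 39 (33.3%) and Sox genes 6 of 19 (31.6%), which were Sox1, Sox11, Sox12, Sox13, Sox18 and Sox30. Of the 34 genes that the study discussed, 11 (32.4%) had a downstream promoter peak: Arid1a, Dpf3, Gata5, Hand2, Maml1, Pbrm1, Pbx3, Ryr2, Smarcd3, Tpm1 and Wnt11, a ligand of outflow tract development. The study chose these genes from the same data, so their share is not independent evidence.

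General cellular functions were split. Splicing factors reached 23 of 66 (34.8%), ubiquitin-conjugating enzymes and deubiquitinases 21 of 56 (37.5%) and translation initiation factors 17 of 56 (30.4%). Rab GTPases reached 19 of 69 (27.5%), cell cycle genes 12 of 47 (25.5%), kinesins 9 of 38 (23.7%), and Klf and Sp genes 6 of 26 (23.1%), with intervals that include the background. Solute carriers (87 of 375, 23.2%) and potassium channels (22 of 94, 23.4%) were also near the background. Ribosomal protein genes (17 of 97, 17.5%) and numbered zinc-finger genes (66 of 397, 16.6%) were just below it. Proteasome subunits reached 4 of 40 (10.0%, Psmd3, Psmd7, Psmd11 and Psmd12), mitochondrial ribosomal proteins 5 of 78 (6.41%) and the respiratory chain with ATP synthase 6 of 100 (6%, among them Cox5a, Cox6a1 and Uqcrfs1). Collagens reached 2 of 25 (8.00%, Col2a1 and Col5a1) and cadherins with protocadherins 5 of 97 (5.15%, among them Cdh2 and Cdh4). No olfactory receptor gene of 1110 and no hepatocyte gene of 30 had a downstream promoter peak. CpG-rich promoters made up 0% of the olfactory receptor genes (median promoter GC content 43%) and 3.33% of the hepatocyte genes (50.3%). They made up 20% of the collagens (58.6%) and 29.7% of the cadherins with protocadherins (52.7%), against 46.3% of all protein-coding genes (59.6%). How far the low shares of these lists go with promoter composition was not tested.

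CpG-rich promoters were common in housekeeping lists below and above the background. They made up 74.2% of the respiratory chain genes (median promoter GC content 61.6%) and 75.6% of the mitochondrial ribosomal protein genes (60.6%). They made up 84.6% of the splicing factors (64.2%) and 80.4% of the translation initiation factors (64.4%). In the Wnt pathway they made up 77.6%, with a median GC content of 70.0%. Among genes with a promoter GC content of 65% or more, 51.4% of all 6731 protein-coding genes had a downstream promoter peak. Within that range the counts were 5 of 21 for the respiratory chain (23.8%), 3 of 21 for mitochondrial ribosomal proteins (14.3%), 13 of 32 for ribosomal proteins (40.6%), 33 of 48 for the Wnt pathway (68.8%), 15 of 21 for the Notch pathway (71.4%) and 17 of 24 for the cardiac transcription factors (70.8%). They were 20 of 29 for splicing factors (69.0%) and 11 of 16 for CHD and ISWI remodelers (68.8%). Of these lists, the Wnt pathway (54.7 to 80.1%), the respiratory chain and mitochondrial ribosomal proteins had intervals that exclude 51.4%. The intervals of the Notch pathway (50.0 to 86.2%) and the cardiac transcription factors (50.8 to 85.1%) include it. Those of splicing factors, CHD and ISWI remodelers and ribosomal proteins include it too. Several lists that lie above the background over all genes were near it in this range, with 10 of 18 for SWI/SNF subunits (55.6%), 11 of 20 for FGF signaling (55%), 12 of 24 for translation initiation factors (50.0%) and 17 of 34 for histone methyltransferases and demethylases (50.0%). Others were below it, with intervals that include it. These were Klf and Sp genes (5 of 14, 35.7%), Rab GTPases (19 of 45, 42.2%), cell cycle genes (12 of 27, 44.4%) and potassium channels (15 of 33, 45.5%).

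The 6 of 66 clustered histone genes with a peak (9.09%, Hist1h2ad, Hist1h2ag, Hist1h2ah, Hist1h2an, Hist1h3a and Hist1h3i) are uncertain. All 6 peaks lay in near-identical gene copies, where reads may have been placed on a different member of the family, and none is left when only single-copy peaks are counted. Their median width was 585 bp.

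A second downstream promoter peak was present at 55 gene symbols, 3 of which had 3. At 42 of the 55 the start sites implied by the peaks lay more than 1000 bp apart, with a median span of 32878 bp over these 42, so that they lie at separate start sites of a gene or at copies that share a symbol. Ank1, which encodes an ankyrin, had peaks of 1702 and 958 bp at start sites 83423 bp apart, and Arhgef7, a guanine nucleotide exchange factor gene, had peaks of 1618 and 1046 bp at start sites 30225 bp apart. Both peaks of Arhgef7 had 77.0% GC in the central 200 bp, and those of Ank1 had 83.5% and 73.0%. Gm10409 and Gm3500, with 3 peaks each, lie in near-identical copies of sequence on chromosome 14 and are uncertain. Klc3, a kinesin light chain gene, had peaks of 813, 444 and 1279 bp, and the CpG ratio of the last, 0.0438 over 500 bp, was far below that of typical downstream promoter peaks.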

How the data were processed

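Chromatin of 2 Isl1 ChIP samples and 1 input sample was sequenced at day 5 of differentiation. According to the study's methods, the authors aligned reads to mm9 with Bowtie2, removed duplicates with Picard 1.136, called peaks with MACS14 without a model, dropped blacklisted regions, kept areas common to both replicates with bedtools 2.15 and assigned the closest TSS with HOMER. The deposited values are peak coordinates and a signed distance in bp, with no normalization or read number. Peaks called in only 1 replicate are absent, and reads that fit several positions could have been placed on any copy.

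Identical lines were counted once (14165 lines, 14082 distinct peaks). Coordinates were read from the mm9 sequence (NCBI m37) and annotated with GENCODE vM1. RefSeq (GRCm38.p6) gave gene names and biotypes only, and matched 4385 of the 4387 peaks. Midpoints, widths, GC content, CpG ratio, 31-mer copy number (single-copy: median count under 2) and strings were computed with Python 3.11.15 and SciPy 1.17.1. Classes of peaks were compared by two-sided Fisher exact tests with Benjamini-Hochberg adjustment at a threshold of 0.05. Shares have 95% Wilson intervals, and medians have binomial ones. The tests were checked on simulated data. Members, gene lists and named genes were chosen with earlier results of these data known. Genes named were those of 6 lists in full (cardiac, sarcomere, SWI/SNF, LIM, Notch and Hedgehog) and of the study's list, the first 6 in alphabetical order of each other list, the 10 widest peaks, the 5 genes with most peaks, and peaks at the edges of the rule. Some genes of these lists are counted but not reported here by name. The strand of the UTR, exon or intron was not considered in the annotation of midpoints. Alternatives were a distance limit of 500 bp, a minimum width of 500 bp, GENCODE distances, 1 peak per gene, single-copy peaks, every line counted, and other limits for width, k-mer, CpG, divergence and window.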

Additional observations from a re-analysis of the deposited data

Results flagged for a closer look

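At 23 downstream promoter peaks (0.524%) the same line stood more than once in the list, with 24 extra lines in all, a feature that no comparison above uses. Their median width was 1834 bp. Among the 9695 other peaks, 55 (0.567%) were repeated. The widest repeated ones were those of Mn1 (5423 bp, 3 lines), Zfp36l2 (3370 bp), Zbtb7a (2529 bp), Taf4 (2310 bp) and Foxc2 (2240 bp), with 2 lines each apart from Mn1. The origin of the repeated lines was not tested.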

How the results depend on the processing

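No paired analysis was possible because the deposited list combines both ChIP replicates and holds no value per sample, and for the same reason no replicate could be left out. Of 315 recomputed values for 60 results, 273 did not change sign or call, or stayed within the sampling interval. The odds ratio for width against all other peaks was 0.994 (adjusted exact p = 1) with a limit of 2000 bp. With GENCODE distances, the odds ratios against upstream promoter peaks were 0.926 for non-coding transcripts and 0.789 for divergent promoters, and 4 strings passed the threshold in place of 2, the CRE and NRF1 type strings being added. The odds ratio for chromosome X was 0.516 with single-copy peaks only, and that for copy number against upstream promoter peaks was 1.28 with 51-mers. In 400 bp windows the odds ratios for the ETS and NRF1 type strings were 1.20 and 1.21, in the opposite direction to those in 200 bp windows, and neither passed the threshold. The cause of these changes was not tested. Against genes with any peak, 51.3% of protein-coding genes had a downstream promoter peak, which is the background for lists counted that way. The list gives no depth, so the strength of a peak and the peaks missed at the caller's cutoff cannot be assessed.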
